A study of Mus musculus with 42 samples.

Results

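The genes described here are 41 genes of mitosis and cytokinesis, taken by symbol from a written list, and their mRNA was followed in mouse bone marrow-derived macrophages (BMDMs) with and without tristetraprolin. The list was chosen with earlier results of these data known. All 41 genes were found among the 21951 genes with an expression value and among the 12558 genes with a decay slope. The macrophages were grown in CSF-1 from L929 cells from marrow of C57BL/6 mice aged 7 to 9 weeks. The cells named ΔM, labelled TTP-/-, carried loxP-flanked Zfp36 that LysM-Cre deletes in the myeloid lineage, and they were compared with BMDMs of WT littermates. Whether the littermates carried the Cre is not given in the sources used here. Each genotype was left without LPS or was given it at 10 ng/ml, with sampling after 3 and 6 h. At 3 and 6 h, RNA was also taken 45 and 90 min after actinomycin D (ActD, 5 µg/ml), an inhibitor of transcription. Each of the 14 groups had 3 biological replicates, 42 libraries in all. The tables give 1 pooled value per group, so each FPKM (fragments per kilobase, scaled to the mapped fragments of the library) below is the authors' value for a group, with no SD, and no difference here has a replicate check or a test. The depth of each library is unknown, and no interval is given.

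Zfp36, the gene that encodes tristetraprolin, had 5.98, 16.3 and 31.0 FPKM in ΔM cells at 0, 3 and 6 h of LPS, against 118, 1017 and 1782 FPKM in WT cells. The genotype labels and the level of the targeted gene therefore pointed the same way at each of the 3 times. The log2 ratio of ΔM over WT for Zfp36, with 0.5 FPKM added to both values, was -4.19 at 0 h, -5.92 at 3 h and -5.82 at 6 h. Between 10243 and 11490 genes per group had an FPKM of at least 1. A total of 11128 genes, 39 of the 41 members among them, had a mean of at least 1 FPKM over the 6 groups without ActD and form the background of the counts below. The members below that mean were Ndc80 and Aspm.

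As background, the mRNAs of mitotic genes are made mostly in G2 and M phase of cycling cells. In resting cells the DREAM complex, in which the MuvB core meets the pocket proteins p107 or p130 and E2F4, holds these promoters silent, and in G2 the same MuvB core with B-MYB and FOXM1 turns them on. MuvB reads an element called CHR near the transcription start, and the trimeric factor NF-Y reads CCAAT boxes placed upstream of it. Macrophages grown in CSF-1 divide until they mature or meet a stimulus such as LPS, which is known to stop their cycling.

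Because these elements mark the class, the promoter windows of the members were read first, from 250 bases before to 50 after the gene start in RefSeq (GRCm38.p6, the build of the authors' mm10). Windows were found for 34 of the 41 members. Ccna2, Aurkb, Incenp, Kif20a, Tpx2, Depdc1b and Fam64a were without one. The CHR was searched as TTTGAA on both strands or as TTCGAA, which reads the same on both, and the CCAAT box as CCAAT on both strands. The 9 stretches below cover the last 120 bases before the start and the first 50 after it. They show members of different roles, and all 9 hold a CHR match, which 6 of the 34 windows lacked. Matches are in capitals, TTTGAA, its reverse TTCAAA or TTCGAA for the CHR and CCAAT or its reverse ATTGG for the box. Each stretch is written on the strand of its gene.
Top2a (chr11:99024140-99024309, minus strand): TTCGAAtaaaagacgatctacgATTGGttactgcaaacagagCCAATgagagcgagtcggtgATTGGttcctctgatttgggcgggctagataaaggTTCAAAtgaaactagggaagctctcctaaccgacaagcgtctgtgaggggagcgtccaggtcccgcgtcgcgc
Ccnb2 (chr9:70421505-70421674, minus strand): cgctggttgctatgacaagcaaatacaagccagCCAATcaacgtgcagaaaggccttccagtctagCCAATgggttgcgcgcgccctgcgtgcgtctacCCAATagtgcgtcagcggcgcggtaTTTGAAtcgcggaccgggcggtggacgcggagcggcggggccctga
Cdc20 (chr4:118437294-118437463, minus strand): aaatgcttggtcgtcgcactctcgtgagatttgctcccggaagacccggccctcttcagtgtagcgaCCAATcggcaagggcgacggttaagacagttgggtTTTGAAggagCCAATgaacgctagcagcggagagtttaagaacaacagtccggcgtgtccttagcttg
Ube2c (chr2:164769809-164769978, plus strand): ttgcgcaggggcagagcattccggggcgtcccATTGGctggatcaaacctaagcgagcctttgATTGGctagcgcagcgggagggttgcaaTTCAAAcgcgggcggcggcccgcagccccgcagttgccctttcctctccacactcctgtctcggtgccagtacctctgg
Spc25 (chr2:69206164-69206333, minus strand): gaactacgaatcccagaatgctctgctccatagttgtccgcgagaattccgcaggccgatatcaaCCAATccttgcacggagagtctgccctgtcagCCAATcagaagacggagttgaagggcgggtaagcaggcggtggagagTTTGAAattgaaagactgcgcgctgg
Kif11 (chr19:37376262-37376431, plus strand): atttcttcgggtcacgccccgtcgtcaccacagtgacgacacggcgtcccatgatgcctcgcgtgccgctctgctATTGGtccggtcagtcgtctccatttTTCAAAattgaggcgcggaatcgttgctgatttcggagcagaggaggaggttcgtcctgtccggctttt
Ckap2l (chr2:129297163-129297332, minus strand): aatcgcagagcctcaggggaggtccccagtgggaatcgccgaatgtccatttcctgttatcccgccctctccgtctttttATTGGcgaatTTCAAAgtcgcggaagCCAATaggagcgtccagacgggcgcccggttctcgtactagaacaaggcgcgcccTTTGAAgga
Racgap1 (chr15:99651607-99651776, minus strand): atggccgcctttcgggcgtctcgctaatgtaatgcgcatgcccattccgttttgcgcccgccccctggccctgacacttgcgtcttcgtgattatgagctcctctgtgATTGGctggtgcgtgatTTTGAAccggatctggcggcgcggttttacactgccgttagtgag
Iqgap3 (chr3:88081931-88082100, plus strand): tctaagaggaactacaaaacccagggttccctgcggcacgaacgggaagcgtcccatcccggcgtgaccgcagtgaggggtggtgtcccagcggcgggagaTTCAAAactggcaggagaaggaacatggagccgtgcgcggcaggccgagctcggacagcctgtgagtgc

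A CHR match was present in 28 of the 34 windows (82.4%), against 19.4% of the windows of all 27025 genes and 13.7% of those of 7765 genes that passed the FPKM filter. Most of these matches lay at the start site. In 26 members (76.5%) a match began within 50 bases of the start, which held for 5.29% of all windows and 3.43% of those of expressed genes. Mki67 and Kif2c had a CHR match only farther upstream. CCAAT boxes were found in 25 windows (73.5%), against 37.9% of all, and at least 2 of them in 18 windows (52.9%), against 12.2% of all. Both kinds of match stood together in 23 windows (67.6%), against 7.70% of all. The windows of Melk, Birc5, Nuf2 and Nusap1 held neither, and those of Ccnb1 and Cenpe held CCAAT boxes without a CHR match. In the printed stretches, Ccnb2 shows 3 CCAAT boxes ahead of a CHR match at the start, and Iqgap3 a CHR match with no box. A match is a description of letters and was not tested for binding.

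**Figure D1:**
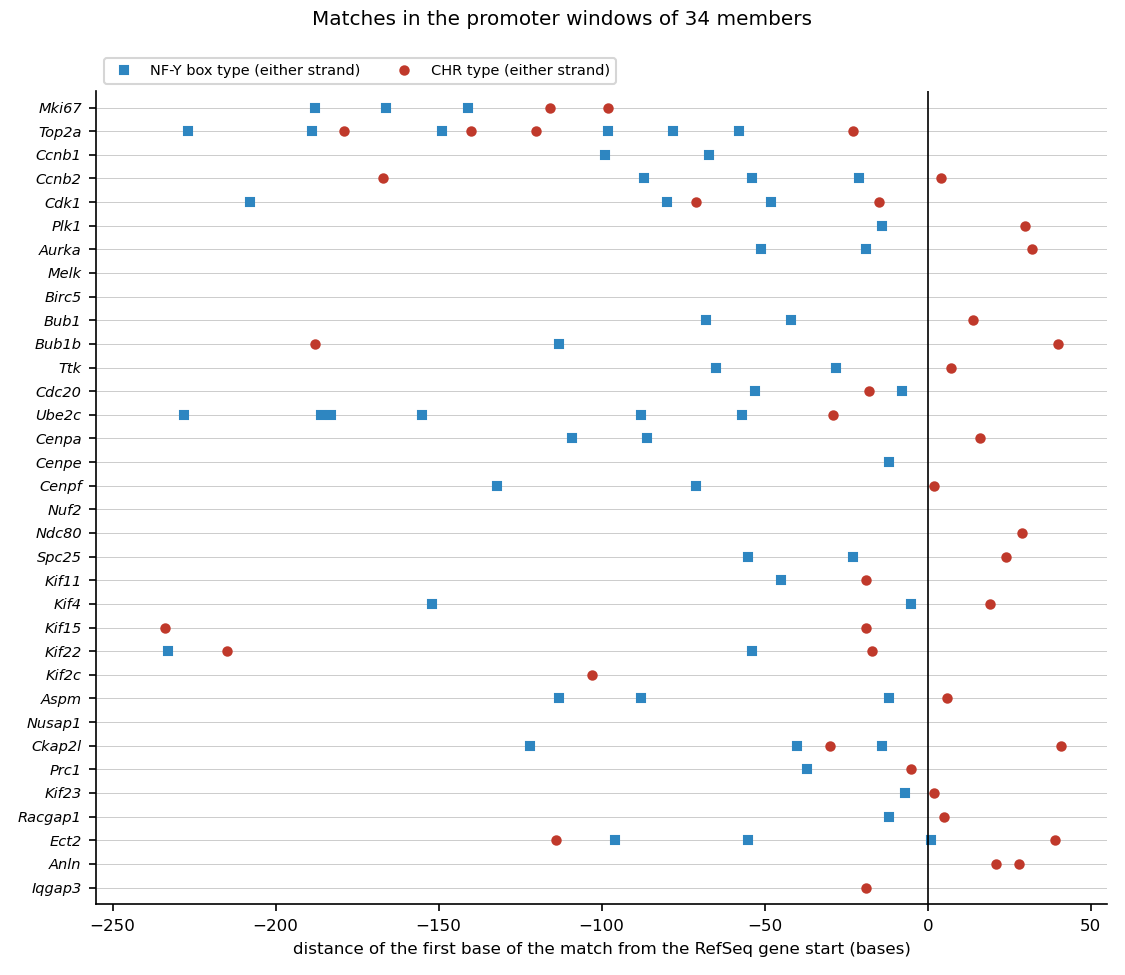
Matches of the CHR type (circles) and of the NF-Y box type (squares) in the promoter windows of 34 members, by distance in bases from the RefSeq gene start at 0, with 1 row per gene. The CHR matches of 26 members begin within 50 bases of the start, and the NF-Y box matches lie mostly upstream of them.

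The first comparison asked how the mRNA of these genes stood in cells without tristetraprolin. All 41 members had less mRNA in ΔM than in WT cells, without LPS and at both LPS times. Of the 11128 genes that passed the filter, 6461, 5845 and 6228 also did at 0, 3 and 6 h. Together the members came to 374, 274 and 162 FPKM in ΔM cells at 0, 3 and 6 h, against 1077, 732 and 463 FPKM in WT cells. That is 34.7%, 37.5% and 35.1% of the WT sum. The median log2 ratio of the 41 members was -1.47 at 0 h, -1.21 at 3 h and -1.29 at 6 h, where the median of all genes that passed the filter was -0.05, -0.02 and -0.04. Members lower in ΔM by at least 2-fold numbered 36 of 39 at 0 h (1.46% of all genes), 27 of 39 at 3 h (1.25% of all genes) and 31 of 39 at 6 h (1.05% of all genes). None of the 39 was higher by 2-fold at any of the 3 times, where the share of all genes was 1.2%, 0.755% and 0.476%. Of all 41, 23 were lower by at least 2-fold at each of the 3 times (0.521% of all genes), and Ndc80, a low gene, at none of them. These calls were made with 0.5 FPKM added, which shrinks the ratios of low genes. Before it was added, Ndc80 in ΔM cells was at 40.1%, 44.4% and 31.1% of WT. At 6 h every member but Tpx2 was then at 47.7% of WT or less. The genotypes at each time are separate samples, so the 3 comparisons share no group. In RNA from whole cultures, fewer cycling cells and less of these mRNAs per cell cannot be told apart.

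**Figure D2:**
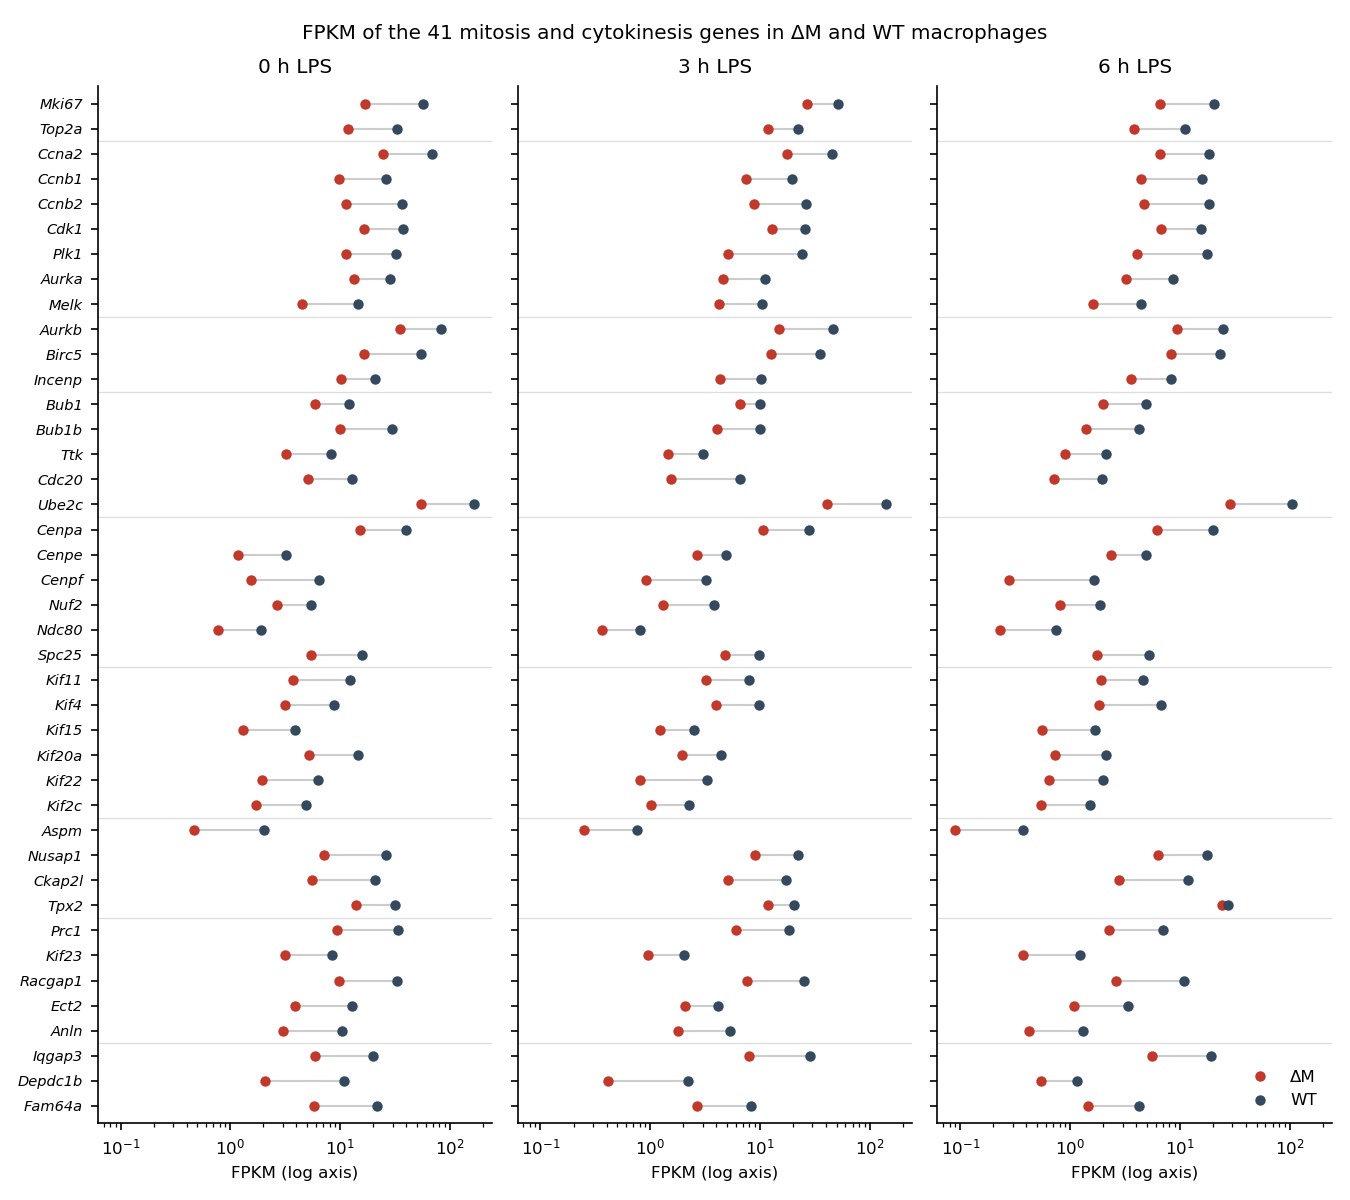
FPKM (log axis) of the 41 members in ΔM (red) and WT (dark) macrophages at 0, 3 and 6 h of LPS, 1 row per gene in order of role, each point the authors' pooled value of a group. The ΔM point lies left of the WT point in all rows and panels, and at 6 h the points of Tpx2 nearly touch.

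**Figure D3:**
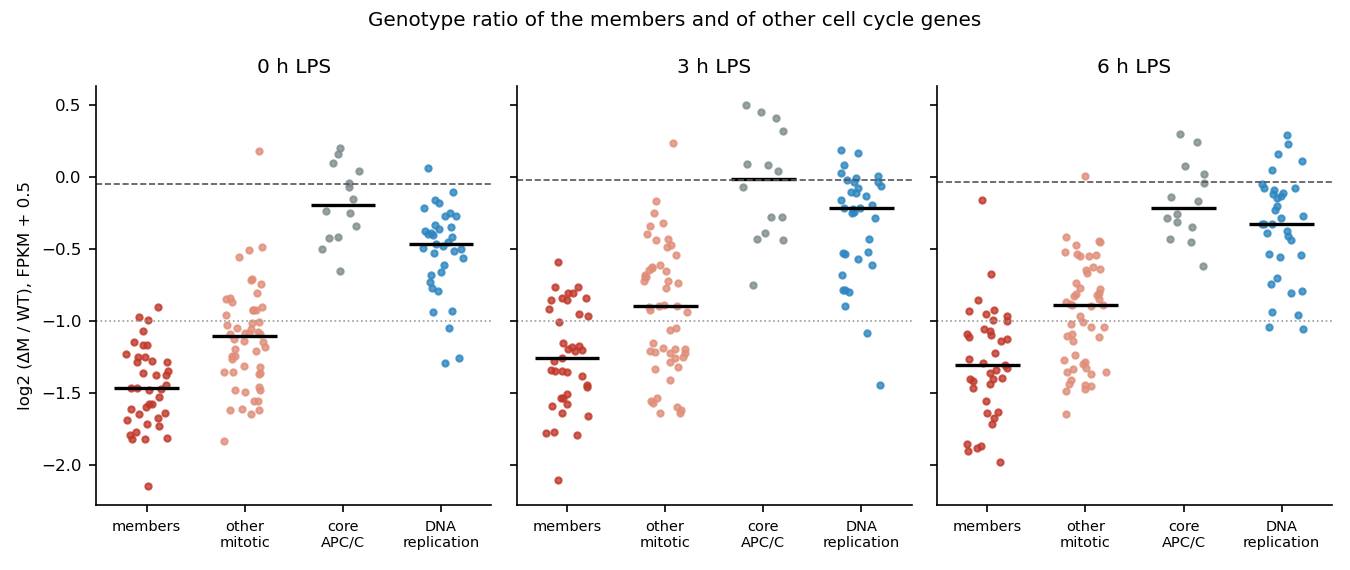
Log2 ratio of ΔM over WT at 0, 3 and 6 h of LPS for the 39 members that passed the FPKM filter and for other mitotic genes, core subunits of the anaphase-promoting complex (APC/C) and DNA replication genes. Each point is a gene, bars are medians, the dashed line is the median of all genes and the dotted line a 2-fold lower level. The median of the 39 members is -1.47, -1.26 and -1.31.

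Among the cyclins and kinases that carry cells into mitosis, all 7 members were lower by at least 2-fold at 0 and 6 h. At 3 h 6 of the 7 were. Of all genes, 1.46%, 1.25% and 1.05% were lower by that fold at 0, 3 and 6 h. Ccnb1, cyclin B1, had 9.80, 7.37 and 4.44 FPKM in ΔM cells at 0, 3 and 6 h, against 26.2, 19.5 and 15.7 FPKM in WT cells. Its kinase Cdk1 had 16.5, 12.9 and 6.79 FPKM in ΔM cells, against 37.7, 25.6 and 15.6 FPKM in WT cells. Cdk1 was the member of this group that missed the 2-fold line at 3 h, with a log2 ratio of -0.95. Plk1, the polo-like kinase of mitotic entry and spindle assembly, stood out after LPS. It had 11.3, 5.15 and 4.08 FPKM in ΔM cells, against 32.4, 23.9 and 17.6 FPKM in WT cells. With 0.5 FPKM added to both values, its log2 ratios of -2.11 at 3 h and -1.98 at 6 h were the lowest of the 41 at those times. By plain share of WT, Plk1 was at 21.5% and 23.2%, and Depdc1b at 3 h (18.5%) and Cenpf at 6 h (16.9%) were lower. At 0 h the log2 ratio of Plk1 was -1.47. Ccna2, cyclin A2, had 24.7, 17.5 and 6.65 FPKM in ΔM cells, against 69.3, 45.3 and 18.4 FPKM in WT cells. Ccnb2, Aurka (Aurora A, the spindle pole kinase) and Melk had log2 ratios between -1.85 and -1.07.

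The chromosomal passenger complex corrects wrong attachments of chromosomes to the spindle and later marks the site of division. Aurkb, its Aurora B kinase, had 34.97, 15 and 9.41 FPKM in ΔM cells at 0, 3 and 6 h, against 82.8, 46.2 and 24.6 FPKM in WT cells. Birc5, survivin, had 16.6, 12.7 and 8.32 FPKM in ΔM cells, against 54.0, 35.3 and 23.1 FPKM in WT cells. Incenp, the scaffold, had 10.2, 4.34 and 3.59 FPKM in ΔM cells, against 20.7, 10.3 and 8.22 FPKM in WT cells. The 3 subunits were thus low together, with Incenp nearest to the 2-fold line at a log2 ratio of -0.99 at 0 h.

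Ube2c, the ubiquitin-conjugating enzyme that works with the APC/C, was the most abundant member per length in each of the 6 groups. It had 54.1, 40.7 and 28.5 FPKM in ΔM cells at 0, 3 and 6 h, against 167, 141 and 105 FPKM in WT cells. Without Ube2c the other 40 members summed to 35.1%, 39.5% and 37.4% of the WT value, so the gap was about as large without this mRNA. Cdc20, the activator of the APC/C at metaphase, had 5.13, 1.54 and 0.72 FPKM in ΔM cells, against 12.9, 6.57 and 1.94 FPKM in WT cells. Among the checkpoint proteins that hold Cdc20 in check, Bub1 was the mildest of all 41 at 3 h, with 6.53 FPKM in ΔM cells, against 10.1 FPKM in WT cells (log2 ratio -0.59). Bub1b, BubR1, had 9.93, 4.06 and 1.4 FPKM in ΔM cells, against 29.7, 10.0 and 4.28 FPKM in WT cells. Ttk, the Mps1 kinase, had log2 ratios of -1.25, -0.86 and -0.93.

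At the centromere, Cenpa, the histone H3 variant that marks where the kinetochore forms, had 15.1, 10.6 and 6.15 FPKM in ΔM cells at 0, 3 and 6 h, against 39.6, 27.9 and 20.1 FPKM in WT cells. Spc25, a subunit of the Ndc80 complex that grips microtubules, had 5.42, 4.77 and 1.74 FPKM in ΔM cells, against 15.9, 9.81 and 5.27 FPKM in WT cells. Its partners Nuf2 and Ndc80 were scarcer, with at most 5.37 and 1.92 FPKM in any group, and had log2 ratios between -1.26 and -0.61. Cenpf reached the lowest share of WT at 6 h, with 0.28 FPKM in ΔM cells, against 1.66 FPKM in WT cells (16.9%). Cenpe, the kinetochore kinesin, went its own way over the LPS course: it had 1.17, 2.67 and 2.35 FPKM in ΔM cells, against 3.20, 4.88 and 4.93 FPKM in WT cells. It was therefore below WT at each of the 3 times and yet higher with LPS than without in both genotypes.

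All 6 kinesins were lower by at least 2-fold at 0 h (1.46% of all genes), 4 at 3 h (1.25%) and 5 at 6 h (1.05%). Kif11, the Eg5 motor that pushes the spindle poles apart, had 3.71, 3.21 and 1.92 FPKM in ΔM cells at 0, 3 and 6 h, against 12.2, 7.90 and 4.59 FPKM in WT cells. Kif20a, a motor of cytokinesis, had 5.25, 1.96 and 0.73 FPKM in ΔM cells, against 14.5, 4.45 and 2.13 FPKM in WT cells. Kif4, Kif15, Kif22 and Kif2c had log2 ratios between -1.64 and -0.81 over the 3 times.

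Of the spindle assembly factors, Ckap2l had log2 ratios of -1.82, -1.66 and -1.91. It had 5.56, 5.07 and 2.81 FPKM in ΔM cells, against 20.9, 17.1 and 11.9 FPKM in WT cells. Nusap1 had 7.06, 8.93 and 6.35 FPKM in ΔM cells, against 26.2, 22.4 and 17.5 FPKM in WT cells. Tpx2, which activates Aurora A on spindle microtubules, was the exception of the whole set at 6 h. It had 13.8, 11.7 and 24.3 FPKM in ΔM cells, against 31.7, 20.3 and 27.2 FPKM in WT cells. Its ΔM level was 89.4% of WT at 6 h, where the next highest member, Cenpe, was at 47.7%. Aspm had at most 0.47 FPKM in ΔM cells and 2.01 FPKM in WT cells.

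The 5 members of the central spindle and the contractile ring were all lower by at least 2-fold at 0 h (1.46% of all genes). At 3 h (1.25%) and at 6 h (1.05%) 3 of the 5 were. Racgap1, of the centralspindlin complex, had 9.66, 7.68 and 2.59 FPKM in ΔM cells at 0, 3 and 6 h, against 33.2, 25.0 and 10.9 FPKM in WT cells. Its partner Kif23, the motor MKLP1, was rarer, with 3.15, 0.96 and 0.37 FPKM in ΔM cells, against 8.36, 2.05 and 1.23 FPKM in WT cells. Prc1, which crosslinks antiparallel microtubules at the midzone, had 9.38, 6.03 and 2.26 FPKM in ΔM cells, against 33.7, 18.4 and 6.99 FPKM in WT cells. Ect2, the exchange factor that turns on RhoA at the equator, and Anln, anillin of the ring, had log2 ratios between -1.64 and -0.84. At 0 h the median log2 ratio of these cytokinesis genes was -1.64, and that of the cyclins and kinases was -1.47.

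Mki67, which coats mitotic chromosomes and is used as a mark of proliferation, had 17.0, 26.8 and 6.58 FPKM in ΔM cells at 0, 3 and 6 h, against 57.1, 51.1 and 20.3 FPKM in WT cells. Top2a, the topoisomerase that untangles sister chromatids, had 11.9, 11.9 and 3.85 FPKM in ΔM cells, against 33.2, 21.98 and 11.02 FPKM in WT cells. Both had their smallest gap at 3 h, with log2 ratios of -0.92 and -0.85. Iqgap3, a scaffold of the IQGAP family, had 5.89, 7.87 and 5.62 FPKM in ΔM cells, against 20.1, 28.3 and 19.1 FPKM in WT cells. Depdc1b, a DEP domain protein, had the lowest share of WT at 0 and 3 h, 19.0% and 18.5%, with 2.08, 0.41 and 0.54 FPKM in ΔM cells, against 10.9, 2.22 and 1.16 FPKM in WT cells. Fam64a, also called Pimreg, had log2 ratios of -1.82, -1.46 and -1.26.

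The second comparison followed the members over the LPS course within each genotype. All genes moved in FPKM over this course: the median of genes that passed the filter shifted by -0.36 in ΔM cells and -0.40 in WT cells between 0 and 3 h, and by -0.59 in ΔM cells and -0.63 in WT cells between 0 and 6 h (log2). The comparisons within a genotype share the 0, 3 and 6 h groups. At 6 h the members' summed FPKM was 43.5% of its 0 h value in ΔM cells and 43.0% in WT cells. The median log2 change of the 41 from 0 to 6 h was -1.30 in ΔM cells and -1.45 in WT cells, beyond the shift of all genes in both. Lower by at least 2-fold at 6 h than at 0 h were 29 of 39 members in ΔM cells (29.2% of all genes) and 28 of 39 in WT cells (32.4% of all genes). With the median of all genes subtracted, 11 of 39 members in ΔM cells and 14 of 39 in WT cells remained past this line, where 11.3% and 12.4% of all genes did.

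The steps within the course were smaller. Between 0 and 3 h, 9 of 39 members in ΔM cells (14% of all genes) and 8 of 39 in WT cells (15.4% of all genes) were lower by at least 2-fold. With the median of all genes subtracted these were 3 in ΔM cells (6.69% of all genes), a share near the background, and 5 in WT cells (6.88% of all genes). Between 3 and 6 h there were 11 in ΔM cells (7.89% of all genes) and 8 in WT cells (8.39% of all genes). The median change of the 41 was -0.48 and then -0.70 in ΔM cells, and -0.61 and then -0.60 in WT cells, against -0.23 for all genes from 3 to 6 h in both genotypes. Levels were lower at each later time in 32 of 41 members in ΔM cells (52.1% of all genes) and in 37 of 41 in WT cells (53.9% of all genes). In ΔM cells Mki67, Bub1, Cenpe, Kif4, Nusap1 and Iqgap3 had a higher level at 3 h than at 0 h and a lower one at 6 h. Top2a was nearly level at first, with 11.85 FPKM at 0 h and 11.93 FPKM at 3 h, and then fell. The share of all genes with such a course was not counted. Tpx2 was the single member higher by at least 2-fold between 3 and 6 h in ΔM cells (3.68% of all genes), at 24.3 FPKM at 6 h, against 11.7 FPKM at 3 h. Cenpe in both genotypes and Tpx2 in ΔM cells were the members above their 0 h level at 6 h. Whether the course differed between the genotypes could not be tested.

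**Figure D4:**
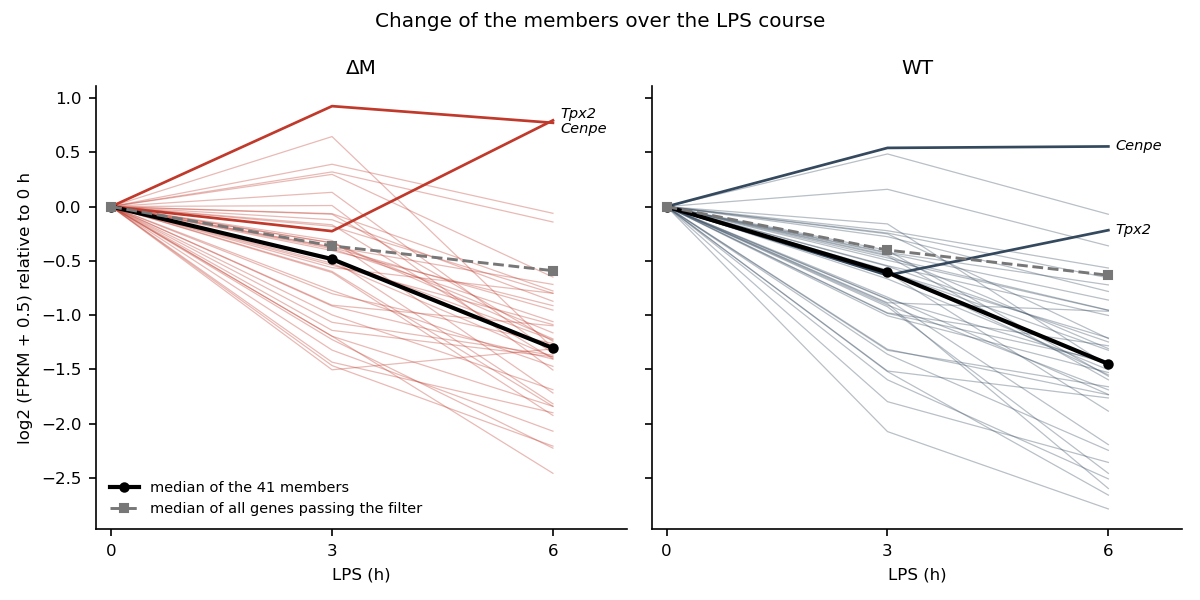
Log2 change of FPKM + 0.5 relative to 0 h for each of the 41 members (thin lines) in ΔM cells (left) and WT cells (right), with the median of the members (black) and of all genes that passed the filter (grey, dashed). The members' median ends at -1.30 in ΔM cells and -1.45 in WT cells, below that of all genes at -0.59 and -0.63, and Cenpe and Tpx2 are drawn thicker.

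The third comparison concerned decay. For each group the authors fitted a line to log2 FPKM over 0, 45 and 90 min of ActD. The slope is given below as the log2 change over 90 min, and the half-life is -1 divided by the slope, called stable from 180 min upward. FPKM is scaled within each library, so each slope measures a gene against the other mRNAs of its cells and can lie above 0, and the deposited slopes carry no error. How many members were short-lived differed with both genotype and LPS time. The FPKM filter is a mean over 6 groups, so a member can pass it and still be low in ΔM cells. Of the 39 members that passed, 16 in ΔM cells (23.1% of all genes) and 10 in WT cells (21.9% of all genes) had a half-life under 180 min at 3 h of LPS. At 6 h there were 4 in ΔM cells (18% of all genes) and 20 in WT cells (23.4% of all genes). The order of the genotypes thus turned between the LPS times.

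The median slope of the 41 was -0.46 in ΔM cells and -0.23 in WT cells at 3 h, and -0.07 in ΔM cells and -0.51 in WT cells at 6 h. Medians of all genes were -0.13 in ΔM cells and -0.05 in WT cells at 3 h, and -0.04 in ΔM cells and -0.09 in WT cells at 6 h. The slope of ΔM minus that of WT had a median of -0.24 at 3 h, with 30 of 41 members (53.6% of all genes) below 0, and of 0.36 at 6 h, with 35 of 41 (58.9% of all genes) above 0. A negative value means faster loss in ΔM cells. In 25 of the 41 members the difference was below 0 at 3 h and above 0 at 6 h, a combination found in 29.1% of all genes. By half-life, 10 of 39 members were lost faster in ΔM cells at 3 h, by at least 2-fold or stable in WT cells alone (8.25% of all genes), and 4 more slowly (7.19% of all genes). At 6 h 17 of 39 were lost more slowly in ΔM cells (8.46% of all genes) and 1 faster, Nuf2 (2.72% of all genes). Among those called slower, Ttk, Kif22, Kif15, Kif2c, Anln, Kif23 and Cenpf had between 0.28 and 0.89 FPKM in ΔM cells at 6 h. Nuf2 had 0.81 FPKM there, so these calls rest on low levels. With a slope gap of at least 0.5 log2 units over 90 min as the line, which was chosen after seeing the data, 11 of 39 were slower in ΔM cells at 6 h, where 6.31% of all genes were, and 1 was slower at 3 h, where 9.68% of all genes were. By that line 8 of 39 were faster in ΔM cells at 3 h, where 16.1% of all genes were, so the 3 h difference lay nearer to the background than by half-life.

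**Figure D5:**
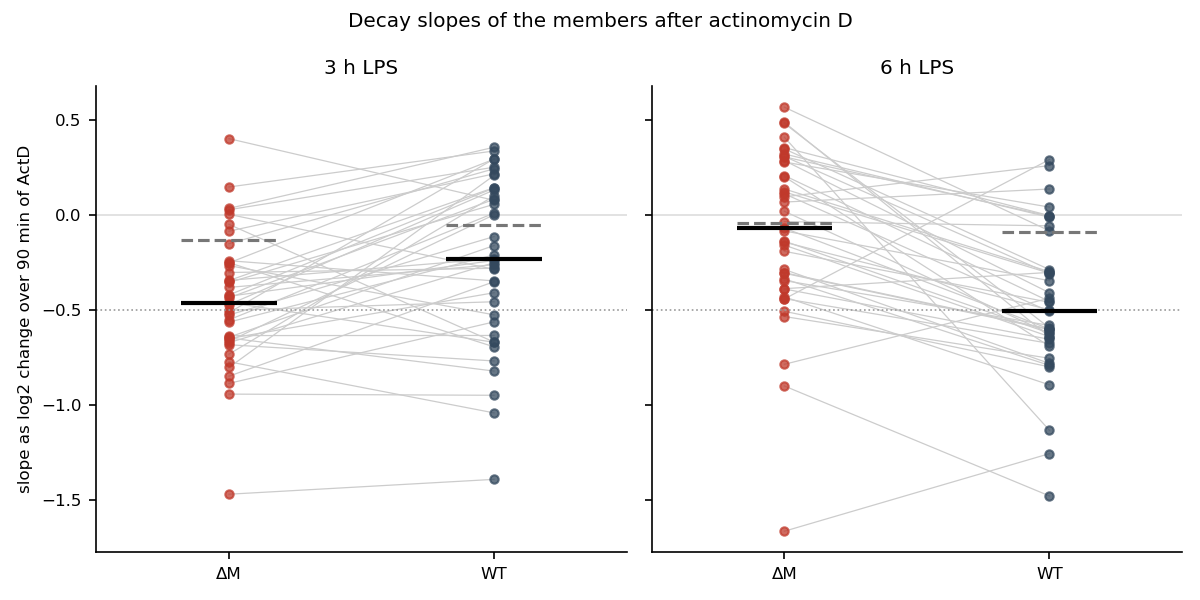
Decay slopes of the 41 members as log2 change over 90 min of ActD, in ΔM and WT cells at 3 h (left) and 6 h (right) of LPS, with lines joining the same gene. Black bars are medians of the members, grey dashed bars medians of all genes, and points below the dotted line have a half-life under 180 min. The members' median is lower in ΔM cells at 3 h (-0.46 against -0.23) and higher in ΔM cells at 6 h (-0.07 against -0.51).

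Depdc1b was the shortest-lived member in 3 of the 4 groups, with half-lives of 61.3 min in ΔM and 64.7 min in WT cells at 3 h, and 54.1 min in ΔM and 71.7 min in WT cells at 6 h. In ΔM cells Depdc1b had only 0.41 FPKM at 3 h and 0.54 FPKM at 6 h before ActD, so its half-lives there rest on a low level. Ckap2l had 102 min in ΔM and 160 min in WT cells at 3 h, and 169 min in ΔM and 120 min in WT cells at 6 h. Aspm, whose FPKM was low, had 95.6 min in ΔM and 95.0 min in WT cells at 3 h, and 100 min in ΔM and 60.9 min in WT cells at 6 h. These 3 were the members under 180 min in all 4 groups, 2 of them among the 39 that passed the FPKM filter (11.4% of all genes).

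Another 14 of the 41 members were stable in all 4 groups, where 64.8% of all genes were, among them Ube2c, Cdk1, Ccnb2, Birc5, Aurkb, Cenpa and Racgap1. Ube2c had slopes of 0.15 in ΔM and 0.34 in WT cells at 3 h and of 0.07 in ΔM and 0.14 in WT cells at 6 h, above 0 in each of the 4 groups. The level of Ube2c was lower in ΔM cells by at least 2-fold at each of the 3 times. Levels below WT were found in members with short and with long half-lives. No slope was measured without LPS, and the part of decay in the members' levels was not tested.

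The turn between the times crossed the 180 min line in both genotypes for 7 members, which were under 180 min in ΔM cells at 3 h and in WT cells at 6 h, and stable in ΔM cells at 6 h and in WT cells at 3 h (1.53% of all genes). They were Mki67, Ccna2, Ccnb1, Spc25, Kif4, Kif2c and Kif23. Of these, Kif2c had 1.02 and 0.54 FPKM and Kif23 0.96 and 0.37 FPKM in ΔM cells at 3 and 6 h, which are low levels. Ccnb1 had a half-life of 164 min in ΔM cells at 3 h and of 133 min in WT cells at 6 h, with slopes of -0.44 in ΔM cells at 6 h and 0.01 in WT cells at 3 h. Mki67 had 160 min in ΔM cells at 3 h and 150 min in WT cells at 6 h, with slopes of -0.30 in ΔM cells at 6 h and -0.21 in WT cells at 3 h. Cenpf had the widest gap at 6 h, with a slope of 0.41 in ΔM cells and -1.13 in WT cells, on levels of 0.28 and 1.66 FPKM. Cdc20 went the other way, with -0.25 in ΔM and -0.69 in WT cells at 3 h and -0.44 in ΔM and 0.29 in WT cells at 6 h. Its levels at 6 h were also low, 0.72 FPKM in ΔM and 1.94 FPKM in WT cells. Several half-lives lay close to the 180 min line, such as Plk1 with 172 min in WT cells at 3 h and 178 min in WT cells at 6 h, and Kif11 with 172 min at 3 h and 178 min at 6 h in ΔM cells.

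Tristetraprolin binds UAUUUAU and longer AU-rich words in the 3′ UTR, as background. The word TATTTAT stood in the annotated 3′ UTR of 11 of the 41 members (26.8%), against 28.0% of genes that passed the filter. Its longer form TTATTTATT was found in Birc5, Ccnb1 and Cenpe (7.32%), against 7.25%. The members' 3′ UTRs had a median of 650 bases, against 1073 for genes that passed the filter, members included, and their transcripts a median GC content of 46.6%, against 50.2%. The share of members with either AU-rich word was thus near that of expressed genes, and their 3′ UTRs were shorter.

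Other mitotic genes, from a list written for this comparison with earlier results of these data known, moved in the same direction. They are therefore no independent check of the members. Of 52 that passed the filter, 36 were lower in ΔM cells by at least 2-fold at 0 h (1.46% of all genes). At 3 h 23 were (1.25% of all genes), and at 6 h 24 (1.05% of all genes). None was higher by 2-fold, where 1.2%, 0.755% and 0.476% of all genes were. The medians of the 52 were -1.11, -0.90 and -0.89. Pbk, a mitotic kinase, was the lowest at 0 h, with 8.85 FPKM in ΔM cells, against 32.9 FPKM in WT cells. Cdkn3, a phosphatase of cyclin-dependent kinases, was the lowest at 3 h, with 2.03 FPKM in ΔM cells, against 7.40 FPKM in WT cells. Cdca3, which promotes mitotic entry, was the lowest at 6 h, with 23.6 FPKM in ΔM cells, against 75.2 FPKM in WT cells. Pttg1, securin, stood apart from the rest of the list at all 3 times. It had 19.1, 46.5 and 92.5 FPKM in ΔM cells at 0, 3 and 6 h, against 16.8, 39.4 and 91.9 FPKM in WT cells.

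A list of 14 APC/C subunits, with the coactivator Fzr1 among them, showed no such gap. Neither genotype was higher by 2-fold for any of them at any of the 3 times. Of all genes, 1.46%, 1.25% and 1.05% were lower in ΔM cells by that fold, and 1.2%, 0.755% and 0.476% higher. The medians of the 14 were -0.19, -0.01 and -0.21. Their lowest values were Cdc23 at -0.66 (0 h) and -0.62 (6 h) and Fzr1 at -0.75 (3 h), and their highest Anapc16 at 0.20 (0 h) and 0.30 (6 h) and Cdc26 at 0.50 (3 h).

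Of the 20 transcription regulators of mitotic genes, 3 were lower in ΔM cells by at least 2-fold at 0 h (1.46% of all genes). At 3 h (1.25% of all genes) and at 6 h (1.05% of all genes) 1 was. None of the 20 regulators was higher by 2-fold (1.2%, 0.755% and 0.476% of all genes). Foxm1, the factor that works with B-MYB and MuvB in G2, was the lowest of them at each time. It had 32.4, 17.7 and 12.6 FPKM in ΔM cells at 0, 3 and 6 h, against 115, 59.6 and 34.3 FPKM in WT cells. E2f7 had 9.47 FPKM in ΔM cells, against 27.8 FPKM in WT cells, and E2f8 28.5 FPKM in ΔM cells, against 62.9 FPKM in WT cells, at 0 h, and both are E2Fs that repress. Mybl2, which encodes B-MYB, had log2 ratios of -0.87, -0.95 and -0.65. The mRNAs of the parts that read the promoter elements moved less. The MuvB subunits Lin9, Lin37, Lin52 and Lin54 had log2 ratios between -0.52 and 0.40, and the NF-Y subunits Nfya, Nfyb and Nfyc between -0.27 and 0.09. The pocket proteins Rb1, Rbl1 and Rbl2 lay between -0.71 and 0.16, E2f4 between -0.38 and -0.03, and E2f1, E2f2 and E2f3 between -0.74 and 0.63. The E2F partners Tfdp1 and Tfdp2 lay between -0.91 and -0.14.

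Markers of other cells were read beside these values. All 9 measured macrophage markers were present, with a sum of 10278, 7347 and 5543 FPKM in ΔM cells at 0, 3 and 6 h, against 12633, 9596 and 7010 FPKM in WT cells. Lyz2, the locus that carries LysM-Cre, had the largest difference in FPKM among them at 0 h, with 4067 FPKM in ΔM cells, against 6936 FPKM in WT cells. Without Lyz2 the other 8 summed to 6211, 4249 and 3499 FPKM in ΔM cells, against 5697, 4755 and 3470 FPKM in WT cells, so the lower ΔM sums at 0 and 6 h came from Lyz2. Single macrophage markers differed in both directions. The log2 ratios of the 9 ranged from -0.77 to 0.88 at 0 h, from -0.64 to 1.02 at 3 h and from -0.79 to 0.85 at 6 h. Of 12 markers of myeloid progenitors and granulocytes, 8 stayed below 1 FPKM in each of the 6 groups, Kit, Mpo, Elane and Cd34 among them. Their sum was 36.2, 3.54 and 17.5 FPKM in ΔM cells, against 18.6, 3.49 and 5.77 FPKM in WT cells. S100a9 had 18.4 FPKM in ΔM cells at 0 h, against 8.34 FPKM in WT cells, and S100a8 had 15.9 FPKM in ΔM cells at 6 h, against 4.21 FPKM in WT cells. Ighm moved with the members, at 27.3, 12.7 and 7.09 FPKM in ΔM cells, against 91.2, 45.3 and 23.4 FPKM in WT cells. The other measured lymphocyte markers Cd3e, Cd79a and Ms4a1 had at most 0.04 FPKM in any group. Summed dendritic, stromal, and erythroid and mast cell markers were at most 3.71, 3.50 and 0.13 FPKM in any group. The part of Lyz2, S100a8, S100a9 and Ighm in the members' values was not tested.

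Some members overlap other genes on the genome, and whether the authors' counting used strand is not given in the sources used here. By RefSeq gene spans Kif20a shares 4930 bases with Cdc23, Ccna2 863 bases with Exosc9, Aurka 242 bases with Cstf1, Nusap1 208 bases with Oip5, Prc1 21669 bases with Rccd1 and Cdc20 53 bases with Elovl1. Cdc23 had 13.5 FPKM in ΔM cells at 0 h, against 21.5 FPKM in WT cells. Elovl1 had 475 FPKM in ΔM cells, against 460 FPKM in WT cells at 0 h, far above Cdc20. Kif4 shares 62763 bases with the long noncoding RNA gene Gm52438, Ect2 228 bases with 1700125G22Rik, and Kif20a also 240 bases with Brd8. Values of members with an overlap are therefore less certain than the rest.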

How the data were processed

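The 42 libraries were made with a SENSE mRNA-Seq kit. The authors mapped reads with GSNAP to mm10 and quantified genes with Mix2, and the submitters' processing notes also name DESeq2. The deposited FPKM table holds 1 FPKM per gene for each of the 6 groups without ActD, pooled by the authors over 3 replicates. The deposited decay table holds, in other units, 1 slope of log2 FPKM per min for each of 4 groups, and half-lives that equal -1 divided by the slope. Columns with the authors' own fold changes and FDRs between groups were not used. Depth per library is not given in either table.

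Ratios were computed in Python 3.11.15 (numpy 2.4.6, pandas 2.3.3, matplotlib 3.10.9) as log2 of FPKM plus a pseudocount of 0.5 FPKM. Genes with a mean of at least 1 FPKM over the 6 groups were counted, at a fold of 2. A half-life differed at 2-fold or where an mRNA was stable (180 min or more) in 1 genotype only. Scripts were tested on simulated data. No test was possible with 1 value per group. GENCODE gave transcript sequences by gene identifier and RefSeq gave promoters, matched by symbol or synonym. A total of 172 genes share a symbol with another. Named genes were Zfp36, the 41 members, the lowest and highest gene of each other cell cycle list at each LPS time, and the regulators, inhibitors and G1 genes with a mean of at least 1 FPKM. The members and lists were chosen with earlier results of these data known. Pseudocounts, filters, folds, centring and GC content were varied.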

Additional observations from a re-analysis of the deposited data

How the results depend on the processing

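No paired analysis was possible because the tables hold 1 pooled value per group with no replicate numbers, and for the same reason leaving out each replicate could not be run. Of 145 values under alternatives, 121 stayed within 1.5-fold (counts) or within a log2 shift of that size (medians). No median of an expression ratio changed sign, and a sign change was not looked for in the counts and decay slopes. All ΔM to WT counts and medians were among these 121, also with the median of the GC bin subtracted. For single members, 466 of 468 ratios did so, and the exceptions, with 0.1 FPKM as pseudocount, were Depdc1b at 3 h (-2.19) and Cenpf at 6 h (-2.21). The shares in parentheses below are those of all genes under the same setting. With all genes' median subtracted, members lower by 2-fold over the LPS course numbered 3 in ΔM cells (6.69%) and 5 in WT cells (6.88%) from 0 to 3 h, 5 in WT cells (4.80%) from 3 to 6 h, and 11 in ΔM cells (11.3%) and 14 in WT cells (12.4%) from 0 to 6 h, with medians of -0.72 in ΔM cells and -0.82 in WT cells. At a mean of at least 5 FPKM, 26 members were left, of which 5 in ΔM cells (12%) and 3 in WT cells (11.9%) from 0 to 3 h, and 18 in ΔM cells (26.4%) and 16 in WT cells (28.7%) from 0 to 6 h, were lower. At a fold of 1.5 there were 16 in ΔM cells (34.4%) and 22 in WT cells (36.7%) from 0 to 3 h, and 25 in ΔM cells (22.8%) and 21 in WT cells (23.4%) from 3 to 6 h. For decay at 5 FPKM or more, half-lives under 180 min numbered 4 in WT cells (17.8%) at 3 h, and 2 in ΔM cells (13%) and 10 in WT cells (17.8%) at 6 h. By half-life 1 of these 26 members was slower in ΔM cells at 3 h (5.88%), and 8 were slower (6.03%) and 0 faster (1.04%) at 6 h. With the median slope subtracted, 2 members in ΔM cells were under 180 min at 6 h (16.3%). With a slope gap of 0.5, added after seeing the data, 1 was slower at 3 h (9.68%) and 11 at 6 h (6.31%). Fewer members were tested at 5 FPKM, and the cause of the other shifts was not tested.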

Other observations

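Genes of earlier cell cycle steps lay nearer to WT than the mitotic set. Of 35 DNA replication genes that passed the filter, 3 (8.57%) were lower in ΔM cells by at least 2-fold at 0 h. At 3 h and at 6 h, 2 (5.71%) were. These shares were above those of all genes, which were 1.46%, 1.25% and 1.05% at 0, 3 and 6 h. The replication genes had median log2 ratios of -0.46, -0.22 and -0.32. Their summed FPKM was 66.1%, 72.3% and 75.4% of WT at 0, 3 and 6 h, where that of the 41 mitosis and cytokinesis genes was 34.7%, 37.5% and 35.1%. Rrm2, a subunit of ribonucleotide reductase, was the lowest of the replication genes at each time. It had 99, 45.4 and 12.6 FPKM in ΔM cells, against 243, 125 and 26.8 FPKM in WT cells. The licensing factor Cdt1 was the highest at 0 and 6 h, with log2 ratios of 0.06 and 0.29, and its inhibitor Gmnn at 3 h, with 0.19.

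With 0.5 FPKM added to both values, none of the 8 G1 cyclins and kinases was lower or higher by 2-fold at any of the 3 times. Before it was added, Ccne2 at 0 h was just past the 2-fold line, lower in ΔM cells. Of all genes, 1.46%, 1.25% and 1.05% were lower in ΔM cells by that fold, and 1.2%, 0.755% and 0.476% higher. Ccnd1, Ccnd2, Ccnd3, Ccne1, Ccne2, Cdk2, Cdk4 and Cdk6 had log2 ratios up to 0.61, with the lowest for Ccne2 at 0 h (-0.995, with 15.0 FPKM in ΔM cells, against 30.4 FPKM in WT cells) and the highest for Ccne1 at 3 h (9 FPKM in ΔM cells, against 5.74 FPKM in WT cells).

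The inhibitors of these kinases took different courses. Cdkn2d, which encodes p19 of the INK4 family, had 10.9, 25.1 and 100 FPKM in ΔM cells at 0, 3 and 6 h, against 28.8, 29.4 and 86.4 FPKM in WT cells. Its log2 ratio was -1.36 at 0 h, -0.22 at 3 h and 0.22 at 6 h. Cdkn2c had 4.93, 2.24 and 1.35 FPKM in ΔM cells, against 13.2, 5.57 and 2.71 FPKM in WT cells. Cdkn1a, which encodes p21, had 146, 729 and 468 FPKM in ΔM cells, against 172, 1015 and 451 FPKM in WT cells. Cdkn1b had log2 ratios of -0.50, -0.23 and -0.50.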
